A study of Mus musculus with 12 samples.

Results

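The 9 genes described here mark microglia, the resident macrophages of the brain: Cx3cr1, P2ry12, Tmem119, Csf1r, C1qa, C1qb, C1qc, Aif1 and Trem2. They were chosen by symbol, as markers of the cell type. All 9 were found among the 18208 genes of the RNA-seq table. Of the 147438 distinct positions in the table of hnRNP H CLIP reads, 75 carried the Ensembl identifier of a member, and 8 of the 9 genes had at least 1 such position, against 72.6% of all genes in the RNA-seq table. Tmem119 had none.

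Microglia arise from the yolk sac, settle in the brain before birth and renew themselves there. Their survival depends on the receptor encoded by Csf1r, their processes move toward released nucleotides through P2ry12, and they read the neuronal chemokine Cx3cl1 through Cx3cr1. They also make most of the C1q of the brain, which tags synapses and debris for removal, and Trem2 senses lipids and lipoproteins during clearance. hnRNP H is a nuclear RNA-binding protein that favours runs of G and regulates splicing and RNA processing. CLIP-seq crosslinks such a protein to its RNA, pulls it down with an antibody and sequences the bound fragments.

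The tissue was whole striatum, both sides, from wild-type mice on the C57BL/6J strain, 50 to 100 days old, born to Hnrnph1 heterozygous fathers and C57BL/6J mothers. Every mouse was given saline intraperitoneally (10 ml/kg) on the first 2 days. On day 3 it received either saline again or methamphetamine at 2 mg/kg, and the striata were taken 30 min later. Each library came from a pool of 4 mice (2 females and 2 males), so the spread between libraries is between pools and not between animals. There were 3 pools per treatment, and a portion of each was set aside for RNA-seq before cross-linking, which gave 6 RNA-seq and 6 CLIP libraries. The RNA was taken from the whole striatum without sorting. A lower level of a microglial transcript can therefore mean fewer microglia or less of that RNA in each, and these cannot be told apart.

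Among the exonic positions of these genes, the CLIP position with the most reads (73 over the 6 libraries) lay in the 3′ UTR of Cx3cr1. Its 100 bases, chr9:120049117-120049216 on the minus strand of GRCm38, held 11 separate runs of 3 or more G on the RNA strand. Of the 24092 positions of the table that lie inside 1 exon, 21 (0.0872%) held at least 11 such runs, and the median was 1. The sequences show letters of positions with reads. The first 4 lines are sites of 30 bases from 3′ UTR positions of Cx3cr1, of which the first 3 lie side by side. The others are the coding positions of Cx3cr1, C1qc and Aif1 that had the most reads or a place in a peak list. Reads were counted per position of 100 bases, so they cannot be placed within a printed site, and the first site holds only part of the 11 runs. They are written 5′ to 3′ from the GENCODE M21 transcripts, with runs of 3 or more G in capitals.
Cx3cr1 3′ UTR, chr9:120049187-120049216, minus strand: ggaGGGagaGGGaGGGaGGGaGGGaGGGag
Cx3cr1 3′ UTR, chr9:120049083-120049112, minus strand: gaaagaaagaaagaGGGagagagagaaaga
Cx3cr1 3′ UTR, chr9:120049243-120049272, minus strand: agagagagaaagaGGGGGagagagagaGGG
Cx3cr1 3′ UTR, chr9:120049687-120049716, minus strand: ggttgtgataaccatttcagaagtctctcc
Cx3cr1 coding exon, chr9:120051417-120051516, minus strand: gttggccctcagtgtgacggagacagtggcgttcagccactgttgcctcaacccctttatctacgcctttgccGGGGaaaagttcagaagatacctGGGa
C1qc coding exon, chr4:136890105-136890204, minus strand: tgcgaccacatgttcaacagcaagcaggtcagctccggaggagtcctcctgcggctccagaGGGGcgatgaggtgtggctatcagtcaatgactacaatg
Aif1 coding exon, chr17:35171492-35171576, minus strand: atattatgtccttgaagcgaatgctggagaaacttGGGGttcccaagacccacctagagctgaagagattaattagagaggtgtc

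The 3′ UTR position of the first line had 73 reads, the one of the second line 37 reads and 1 run, and the one of the third line 10 reads and 6 runs. The fourth line comes from a position with 18 reads and no run of 3 G, so reads on Cx3cr1 were not limited to positions with G-runs. The Cx3cr1 coding position had 17 reads, the C1qc coding position 13 and the Aif1 coding position 6. The letters GGG were searched on the RNA strand only, and every GGGG also counts as a GGG. Of the 15 member positions inside 1 exon, 9 (60.0%) held GGG and 4 (26.7%) GGGG, against 71.0% and 36.5% of all 24092. Of these 15 positions, 11 were of Cx3cr1 and the others of C1qc, Aif1 and Csf1r. G-runs were thus no more frequent in these positions than in exonic positions at large, and the 11-run position stood apart from the other member positions. How reads that match several places were treated is not given in the sources used here.

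The RNA-seq libraries held 3935160 to 5091839 reads on genes, and the CLIP libraries 423057 to 1635338 reads on distinct positions. The first principal component of the RNA-seq values carried 65.6% of the variance of 7853 genes and did not follow treatment: saline 1, saline 3 and methamphetamine 2 lay on one side (called set A below) and saline 2, methamphetamine 1 and methamphetamine 3 on the other (set B). In RNA-seq, CPM are reads scaled to an effective library size, and in CLIP to the reads on distinct positions. In set A the effective size was below the reads on genes: 3558067 against 3935160 (saline 1), 4033808 against 4688130 (saline 3) and 4378330 against 4882772 (methamphetamine 2). In set B it was above them: 4734333 against 4698135 (saline 2), 5004573 against 4901709 (methamphetamine 1) and 5184574 against 5091839 (methamphetamine 3). The scaling thus differed between the sets, and its part in their differences was not tested. Summed over their markers, striatal projection neurons reached 7550 to 8770 CPM in set A but only 5480 to 6300 in the others. Astrocyte markers were at 2450 to 2730 CPM in set A, below their 3640 to 4030 in set B. Endothelial markers were likewise at 61.1 to 85.7 CPM, below 96.9 to 143. Methamphetamine 2 held 5230 CPM of choroid plexus markers, against 137 to 277 in the other libraries. No label names these sets. They were read from the same libraries, so differences between them are given as values with no test. Markers of blood leukocytes stayed low, at 2.41 to 10.8 CPM summed over 7 measured genes, and S100a9, Ly6c2, Ccr2, Plac8 and Ngp were at 0 reads in at least 1 library. Their part in the results below was not tested.

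**Figure D1:**
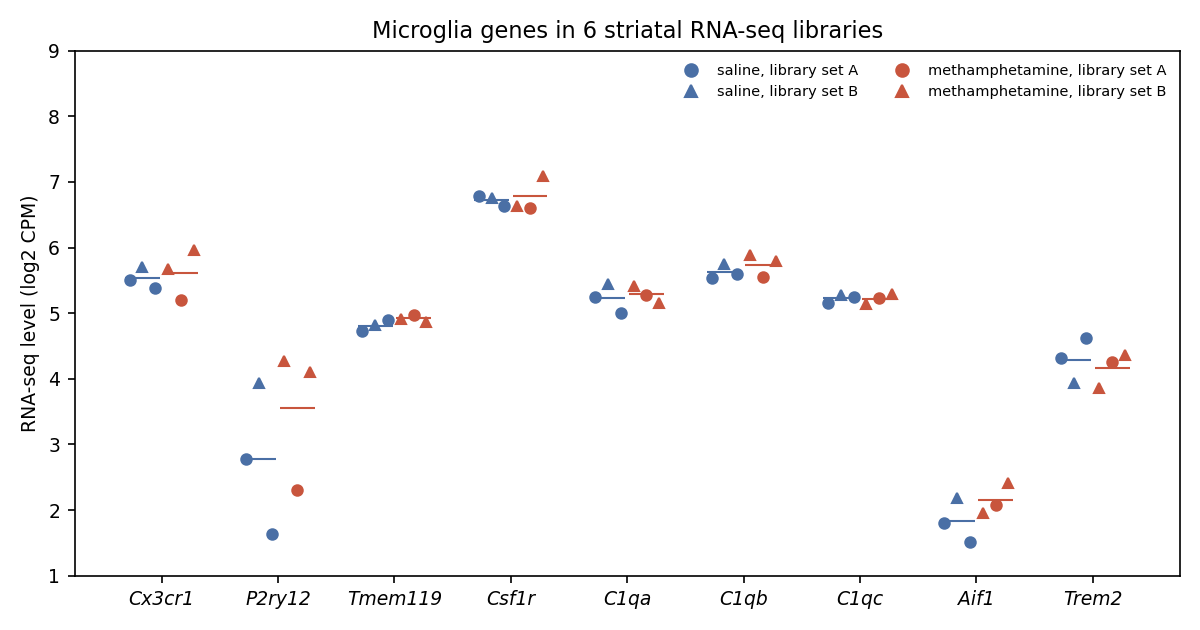
RNA-seq level of the 9 microglia genes in each of the 6 libraries (log2 CPM, as deposited), by treatment, with the library set marked by symbol. P2ry12 spans 1.63 to 4.27, while C1qc keeps between 5.14 and 5.29.

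All 9 genes were expressed in the striatum. Compared per kilobase of exon, as means over the 6 libraries, the complement genes led: C1qb at 47.6 CPM per kb, C1qa at 37.0 and C1qc at 19.4, followed by Csf1r at 18.8, Tmem119 at 12.6 and Cx3cr1 at 10.7. P2ry12 followed at 4.37, Trem2 at 3.84 and Aif1 at 2.65, beside a median of 2.57 over 17927 genes. The libraries of C1qb lay wholly above those of C1qa, and those of C1qa above those of C1qc. The libraries of C1qc and Csf1r overlapped, as did those of Tmem119 and Cx3cr1, of P2ry12 and Trem2, and of Trem2 and Aif1, so the order within these pairs was not beyond their spread. The exon length counts every annotated transcript of a gene, which lowers the value of a gene whose main transcript is short.

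Methamphetamine left no member past the threshold in RNA-seq. By limma on the deposited log2 CPM of all 18208 genes, with Benjamini-Hochberg adjustment, 0 genes passed an adjusted p of 0.05 (percent called 0), and 276 (1.52%) had an unadjusted p under 0.05. All 9 members had an adjusted p of 0.9998, and 0 of 9 had an unadjusted p under 0.05. Their change was above 0 for 7 and below 0 for 2 (C1qc and Trem2), where 50.4% of all genes were above 0. The libraries of the treatments overlapped for all 9 members, while 6.01% of all genes had groups that did not overlap (2.44% higher and 3.58% lower after methamphetamine). Their median change was 0.077 on the log2 scale, against 0.002 over all genes.

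P2ry12, the ADP receptor that steers microglial processes, varied most. It measured 2.78, 3.94 and 1.63 log2 CPM in the saline libraries 1 to 3 (24, 72 and 12 reads) and 4.27, 2.30 and 4.11 in the methamphetamine libraries 1 to 3 (96, 21 and 89 reads). Each treatment held both low and high libraries, and the highest level was 6.22 times the lowest. The means were 2.78 ± 1.15 in saline and 3.56 ± 1.10 in methamphetamine (SD, n = 3 each), a change of 0.77 ± 0.65 (SE), with a 95% confidence interval from −0.70 to 2.25 and an adjusted p of 0.9998 by limma. Leaving out 1 library at a time moved the change from 0.20 (without saline 3) to 1.41 (without methamphetamine 2), and it was 1.35 without saline 2.

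By library set, P2ry12 averaged 2.24 in set A and 4.11 in set B. Within set A the methamphetamine library differed from the mean of the saline libraries by 0.09, and within set B the mean of the methamphetamine libraries differed from the saline library by 0.25. With the set as a covariate, the treatment change of P2ry12 was 0.17. The gene lies inside Med12l, which is read from the opposite strand and measured 5.44 to 5.63 in all 6 libraries, with set B above set A by 0.12. Whether the RNA-seq reads were counted by strand is not given in the sources used here.

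Cx3cr1, the receptor for the chemokine Cx3cl1, measured 5.50, 5.71 and 5.39 log2 CPM in saline and 5.67, 5.20 and 5.96 in methamphetamine (160 to 323 reads). The lowest and the highest library were both methamphetamine, and the groups overlapped. The change was 0.08 ± 0.22 (SE), with a 95% confidence interval from −0.42 to 0.57. Every library of set B (5.67 or more) was above every library of set A (5.50 or less).

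Csf1r, the receptor for the growth factors Csf1 and Il34, measured 6.78, 6.75 and 6.64 in saline and 6.64, 6.60 and 7.09 in methamphetamine. The methamphetamine 3 library stood above the others, which lay between 6.60 and 6.78, and the change was 0.05 ± 0.18, with an interval from −0.34 to 0.45. Tmem119, a membrane protein used to tell microglia from blood macrophages, measured 4.73, 4.82 and 4.89 in saline and 4.91, 4.97 and 4.87 in methamphetamine. Its change was 0.10 ± 0.17 (interval −0.27 to 0.48), and the groups overlapped only through saline 3 and methamphetamine 3.

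C1qa, C1qb and C1qc encode the chains of C1q, the first component of the classical complement pathway, and lie side by side on chromosome 4, from 136880129 to 136898803. C1qc was the steadiest member, at 5.15, 5.28 and 5.25 in saline and 5.14, 5.23 and 5.29 in methamphetamine, a range of 0.15 over all libraries. C1qb measured 5.54, 5.75 and 5.60 in saline and 5.88, 5.55 and 5.80 in methamphetamine, and its libraries of set B were all above those of set A. C1qa measured 5.24, 5.44 and 5.0 in saline and 5.42, 5.28 and 5.15 in methamphetamine. Their changes were 0.06 ± 0.18 for C1qa, 0.11 ± 0.17 for C1qb and −0.01 ± 0.16 for C1qc, and the widest of their intervals ran from −0.35 to 0.47.

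Trem2, the lipid-sensing receptor, was the member that was lower in set B. It measured 4.31, 3.94 and 4.62 in saline and 3.86, 4.25 and 4.37 in methamphetamine, a change of −0.13 ± 0.25 (interval −0.69 to 0.43). Its lowest libraries, methamphetamine 1 and saline 2, were both of set B, whose mean was below that of set A by 0.34. Aif1, which encodes the calcium-binding protein Iba1 used to stain microglia, rested on 11 to 27 reads per library. It measured 1.81, 2.18 and 1.51 in saline and 1.96, 2.08 and 2.41 in methamphetamine, a change of 0.31 ± 0.36 (interval −0.50 to 1.12).

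**Figure D2:**
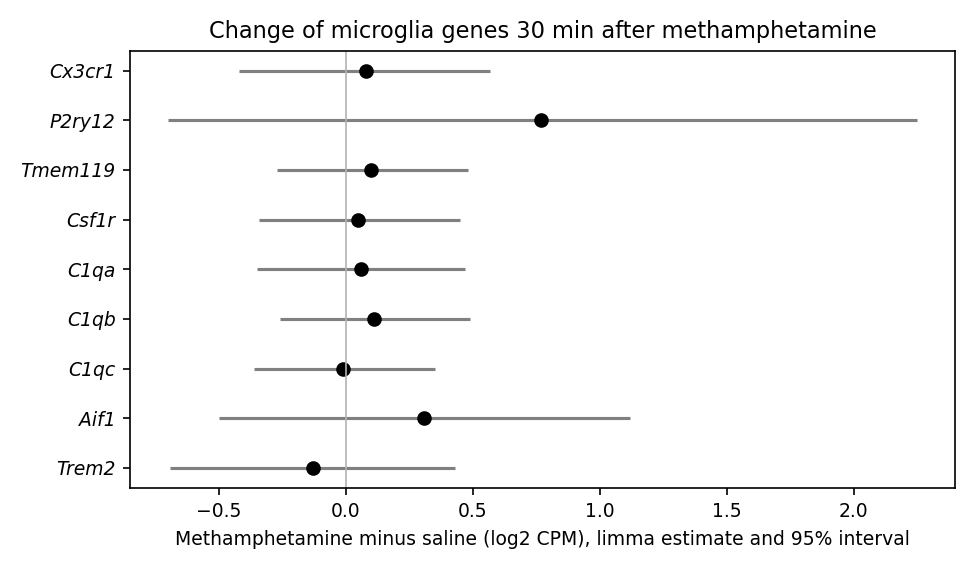
Change of each member between methamphetamine and saline (log2 CPM, limma, 3 libraries per group) with its 95% confidence interval. Every interval includes 0, from −0.13 for Trem2 to 0.77 for P2ry12.

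Summed over the 9 genes, the microglial level was 332, 360 and 320 CPM in saline and 355, 316 and 402 in methamphetamine. The means were 337 ± 20.2 and 358 ± 42.9 CPM (SD, n = 3), and the groups overlapped. The sum followed the library sets: in set A it was 316 to 332 CPM, and the libraries of set B were all higher, at 355 to 402. Of the 9 members, 8 had a higher mean in set B, where 48.4% of all genes did. Among these, Tmem119 (4.86 in set A and 4.87 in set B) and C1qc (5.21 and 5.23) were nearly equal. For 3 members (Cx3cr1, P2ry12 and C1qb) every library of set B was above every library of set A, as for 19.9% of all genes. Astrocyte and endothelial sums were higher, and projection neuron sums lower, in the same libraries, and their part in the microglial difference was not tested.

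A list of 20 other microglia genes gave the same order. Its summed level was 282 to 287 CPM in set A, against 330 to 353 in set B, and 16 of 20 genes had a higher mean in set B. For methamphetamine against saline, 13 of the 20 were above 0 and 7 below, 0 passed the threshold, 0 had an unadjusted p under 0.05, and the median change was 0.055. Selplg, a selectin ligand and among the most abundant genes of the list, differed by 0.12. The smallest p values were those of Olfml3, a secreted protein of microglia (0.69 ± 0.33, unadjusted p = 0.06251, adjusted p = 0.9998 by limma), and of Cd53, a leukocyte tetraspanin with 0 reads in at least 1 library (−1.43, unadjusted p = 0.06333).

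Perivascular macrophages share several of these markers. Their 8 genes summed to 33.9 to 42.0 CPM, with 36.8 to 42.0 for set A beside 33.9 to 40.0 for set B, so this list did not separate the sets. For methamphetamine, 5 of the 8 were above 0 and 3 below, 0 passed the threshold and 0 had an unadjusted p under 0.05. Mrc1, their mannose receptor, differed by 0.84 ± 0.67 (SE, interval −0.67 to 2.35) on only 1 to 10 reads per library. Cd163, their haemoglobin scavenger receptor, differed by −0.29 ± 0.33.

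**Figure D3:**
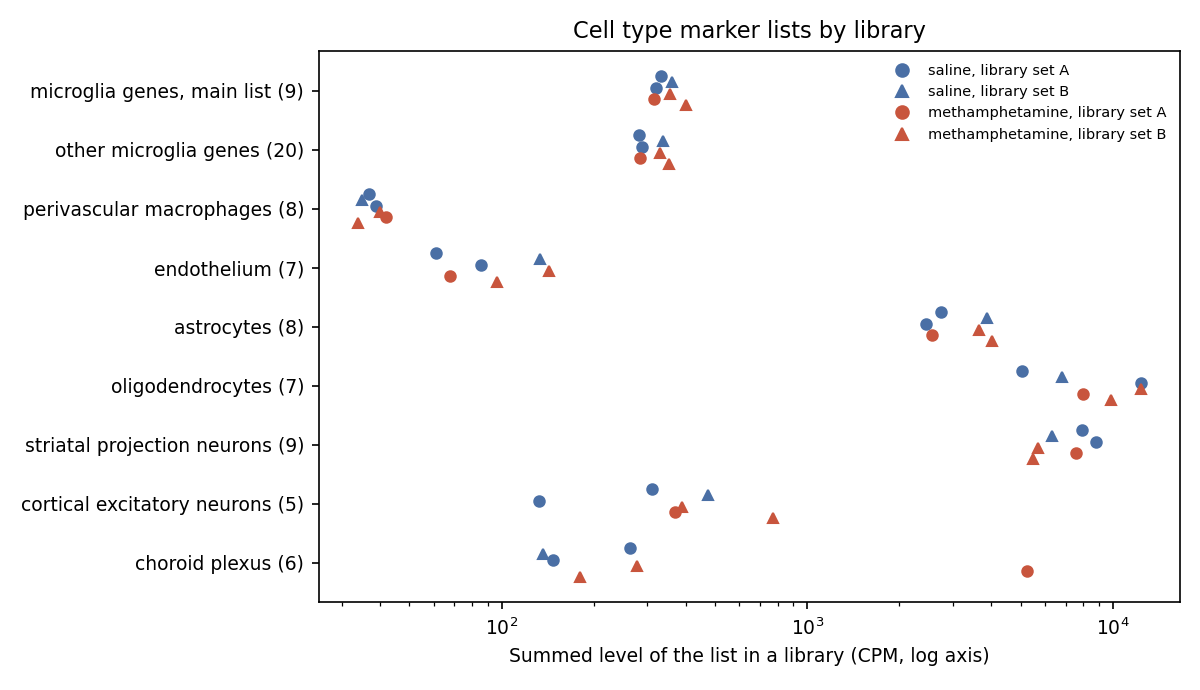
Summed RNA-seq level of each marker list in each library (CPM, log axis), with treatment as colour, library set as symbol and the number of genes in brackets. The members and the other microglia genes are higher in the 3 libraries of set B, as are astrocytes, while projection neurons are lower there.

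The ligands, adaptors and complement proteins that work with the members were read from a list of 18 genes, among them Cx3cl1, Csf1, Il34, Tyrobp, Syk, C3 and C4b. Of these, 10 were above 0 and 8 below, 0 passed the threshold and the median change was 0.016. Serping1, the inhibitor of the C1 proteases, was the 1 gene with an unadjusted p under 0.05. It measured 0.34, 1.00 and 1.85 log2 CPM in saline (4, 9 and 14 reads) and 2.35, 2.60 and 2.30 in methamphetamine (25, 26 and 25 reads). The groups did not overlap, as for 2.44% of all genes in that direction, but rested on few reads. Its change was 1.35 ± 0.45 (unadjusted p = 0.01515, adjusted p = 0.9998 by limma). Clu, a secreted chaperone that binds Trem2, was also apart, at 9.97, 9.97 and 10.20 against 10.26, 10.24 and 10.36, a change of 0.24. Apoe, a lipoprotein that Trem2 binds, differed by 0.18.

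Likeness between genes was measured as the root mean square of the difference between their centred log2 CPM over the 6 libraries, among 10040 genes. Closest to the mean profile of the members were Srgap2 (0.0207), Blmh (0.021), Crmp1 (0.0288), Prpf19 (0.0299) and Chd9 (0.0301), none of them on a marker list. P2ry12 weighs most in that mean, with an SD over the libraries of 1.09 against 0.31 or less for each other member. These genes are therefore not shown to be like each member. Among the members, the closest pair was Tmem119 and C1qc (0.0857) and the most distant P2ry12 and Trem2 (1.2). With 6 libraries many profiles coincide, and these values are a description.

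In CLIP-seq, the members held few reads. Together they took 0.0105% (Wilson 95% interval 0.00875% to 0.0127%) to 0.0214% of a library's reads on distinct positions. Their share of RNA-seq reads on genes was 0.0275% to 0.0408%. The bases of these shares differ, so the shares were not compared. Intervals cover counting error only. The median over the 8 members with positions was 32 reads in all libraries together, against 58 over all 16918 genes. Only Cx3cr1 (435 reads), C1qb (149) and Csf1r (115) passed the filter on low counts, so the test says nothing about the others. By edgeR's quasi-likelihood test on reads summed per gene, 0 of 8185 genes passed an adjusted p of 0.05 (percent called 0) and 429 (5.24%) had an unadjusted p under 0.05.

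Of the 3 tested members, Csf1r had the largest difference in CLIP reads between treatments. Its sums were 8, 4 and 26 reads in saline and 30, 28 and 19 in methamphetamine, which is 7.6, 9.45 and 15.9 CPM against 33.0, 28.6 and 31.9. The groups did not overlap, as for 9.26% of the tested genes in either direction and 5.27% in that direction. The means were 11 ± 4.36 and 31.2 ± 2.31 CPM (SD, n = 3), a log2 change of 1.47, with an unadjusted p of 0.01364 and an adjusted p of 0.8828 by edgeR. The difference therefore did not hold after adjustment over all genes. The reads were spread over 22 positions, 21 of them in introns, of which none had more than 13 reads and none was in a peak list. The 4 positions with at least 10 reads did not all go the same way. The neighbours chr18:61107599-61107698 and chr18:61107499-61107598 had 0, 0 and 2 and 1, 0 and 1 reads in saline, against 0, 8 and 3 and 0, 8 and 2 in methamphetamine. The position chr18:61110899-61110998 had 3, 0 and 1 against 1, 5 and 2, and chr18:61114499-61114598 had 0, 3 and 5 against 0, 0 and 3.

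**Figure D4:**
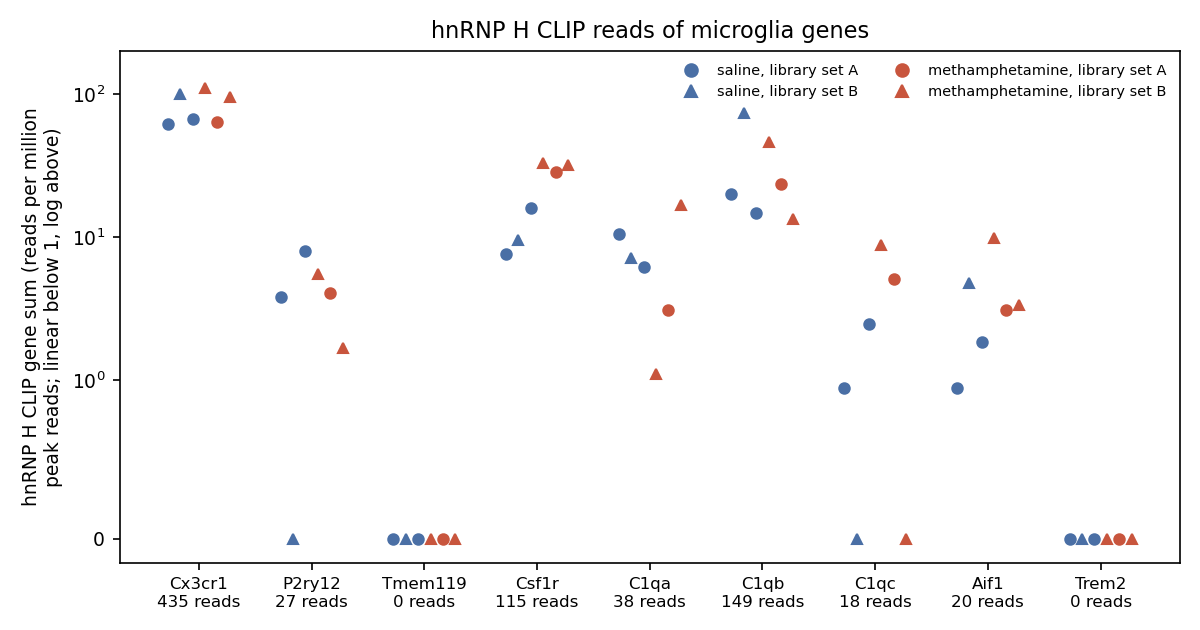
CLIP reads summed per member gene in each library (CPM of reads on distinct positions), by treatment. Csf1r is at 7.6 to 15.9 in saline and at 28.6 to 33.0 in methamphetamine, while the groups of the other tested members, Cx3cr1 and C1qb, overlap.

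C1qb read 21, 31 and 24 in saline and 42, 23 and 8 in methamphetamine, with overlapping groups and a log2 change of −0.33 (adjusted p = 0.9452 by edgeR). A single intron position, chr4:136883230-136883329, held 0, 31 and 1 reads in saline and 33, 2 and 2 in methamphetamine. It carried every C1qb read of saline 2 and most of those of methamphetamine 1, and without saline 2 the C1qb change was 0.68. A second intron position, chr4:136882830-136882929, held 11, 0 and 7 reads in saline and 7, 10 and 6 in methamphetamine, spread over 5 of the 6 libraries. Both positions stood in both of the authors' deposited peak lists.

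Cx3cr1 read 65, 42 and 109 in saline and 100, 62 and 57 in methamphetamine, which is 61.7, 99.3 and 66.7 CPM against 110, 63.3 and 95.7. The groups overlapped and the log2 change was 0.23 (adjusted p = 0.9289 by edgeR), and it lay between 0.03 and 0.48 with 1 library left out. As in RNA-seq, every library of set B (95.7 or more) was above every library of set A (66.7 or less), as for 10.5% of the tested genes. The gene model matters here, because 1 of its 3 annotated transcripts carries the 3′ end of the gene to 119901616 and stretches it over 168264 bases, while the other transcripts span 120048683 to 120069879.

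Inside the shorter transcripts there were 11 positions with 192 reads, and outside them 19 positions with 243 reads. Of the outer positions, 8 with 113 reads lay inside Gorasp1 on the same strand, 4 with 48 reads inside Csrnp1, and 7 with 82 reads in no other same-strand gene, so reads at 12 of the 30 positions cannot be told apart from those of a neighbouring gene. The inner positions summed to 15.3 to 24.7 CPM in set A, below all libraries of set B at 31.9 to 80.3. Of all tested gene sums, 10.5% separated the sets in this direction. The outer positions did not separate the sets, with 37.0 to 51.4 beside 29.7 to 63.8 CPM. With the inner positions alone, the treatment change of Cx3cr1 was 0.41 (adjusted p = 0.9261 by edgeR).

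The 11-run 3′ UTR position printed above held 11, 11 and 9 reads in saline and 25, 7 and 10 in methamphetamine. Scaled to the library, every value of set A (5.5 to 10.4 CPM) was below every value of set B (16.8 to 27.5 CPM). The position was picked for its reads, and the share of all tested positions that separated the sets was not counted. It was the only member position to pass the filter among 10358 tested positions, of which 0 passed the threshold (percent called 0) and 369 (3.56%) had an unadjusted p under 0.05. Its log2 change was 0.60 (adjusted p = 0.9957 by edgeR), with overlapping groups. The position beside it, with 1 run, held 5, 7 and 4 reads in saline and 14, 4 and 3 in methamphetamine. The Cx3cr1 coding position held 0, 3 and 1 against 10, 0 and 3.

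**Figure D5:**
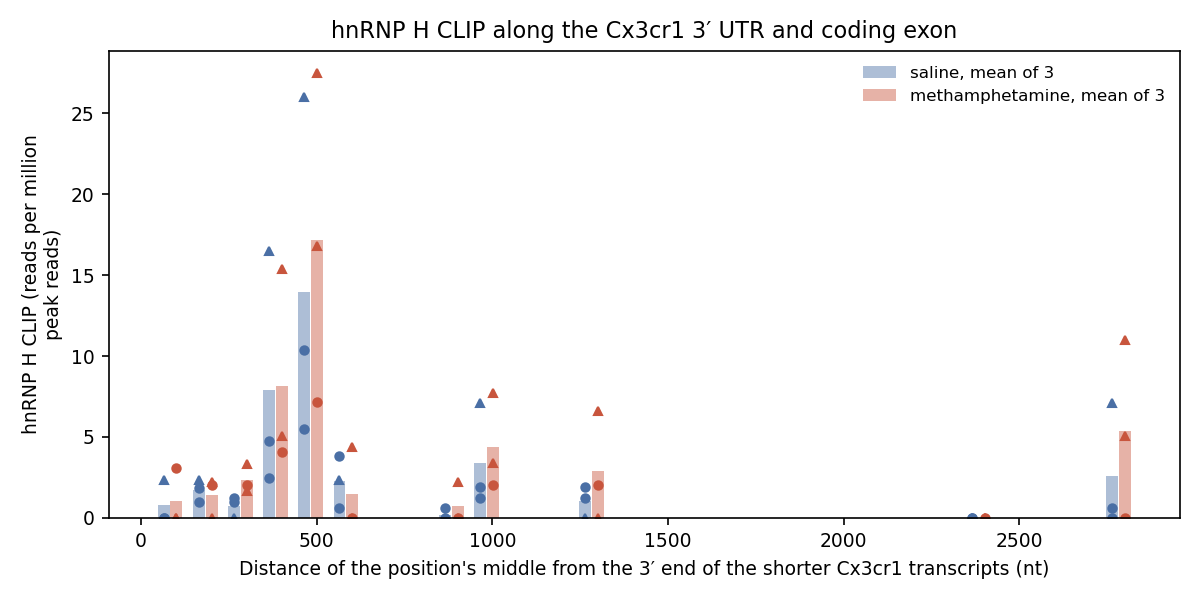
hnRNP H CLIP level of Cx3cr1 positions (CPM) against distance from the 3′ end of its shorter transcripts, with bars for the mean of 3 libraries, circles for set A and triangles for set B. The highest position, with 73 reads, reaches 16.8 to 27.5 CPM in set B and 5.5 to 10.4 in set A.

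The remaining members had few CLIP reads. C1qa held 11, 3 and 10 reads in saline and 1, 3 and 10 in methamphetamine, over 6 intron positions. P2ry12 held 4, 0 and 13 against 5, 4 and 1, at 2 intron positions that also lie inside Med12l on the opposite strand. C1qc held 1, 0 and 4 against 8, 5 and 0, mostly at the coding position printed above, which had 1, 0 and 2 against 5, 5 and 0. Aif1 held 1, 2 and 3 against 9, 3 and 2. The 1 position of Trem2, in its 3′ UTR, had 0 reads in all 6 libraries, which allows up to 1.83 to 7.09 CPM depending on the library (3 reads). None of these 5 genes passed the filter on low counts.

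Over all members, 57 of the 75 positions lay in introns, 13 in 3′ UTRs, 4 in coding exons and 1 in another exon. At least 10 reads were found at 28 positions, and 4 had none. The authors' deposited peak lists held 5 member positions among 9537 in saline and 5 among 9903 in methamphetamine. They belonged to 4 of the 9 genes (44.4%), against 37.5% of all RNA-seq genes and 42.7% of those within the level range of the members.

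By the peak signal value of the authors' deposited table, a score whose scale is not given in the sources used here, the highest member was the Aif1 coding position in the methamphetamine list, at 2.9, above 92.1% of that list, with 4, 1 and 0 reads in the 3 methamphetamine libraries of the count table. The 11-run position of Cx3cr1 had a signal value of 1.7 among the methamphetamine peaks (list median 1.6) and of 1.03 among the saline peaks (list median 1.68). Each list pools the libraries of a treatment and the lists were made separately, so these values were not compared between treatments.

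Relative to its RNA in the same pool, the CLIP level of the members ranged widely. The difference of log2 CLIP CPM minus log2 RNA-seq CPM, averaged over 6 pools, was 0.77 for Cx3cr1, −0.08 for Aif1, −0.95 for C1qb, −1.25 for P2ry12, −2.52 for Csf1r, −2.61 for C1qa and −3.94 for C1qc, beside a median of −0.57 over 11645 genes with at least 10 CLIP reads. Pools differed widely: P2ry12 ran from −3.7 (saline 2, 0 reads) to 1.41 (saline 3), and C1qc from −5.54 (methamphetamine 3, 0 reads) to −1.92. With 27, 18 and 20 reads in all, P2ry12, C1qc and Aif1 depended on the 0.5 reads added. The order of the members was not tested. Cx3cr1 stood above 69.8% of the 11645 genes and C1qc above 5.19%, and 5 of the 7 members lay below the median of all genes. With its inner positions alone (192 reads), a setting added after seeing the data, Cx3cr1 was at −0.48, above 51.3% of genes and below Aif1. CLIP positions lay mostly in introns, and intron length was not taken into account.

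For Csf1r the difference was −3.24 in saline and −1.79 in methamphetamine, a change of 1.45 ± 0.61 (SE) with a 95% confidence interval from 0.06 to 2.85. Its unadjusted p was 0.04289, where 3.74% of genes had one under 0.05, and its adjusted p by limma was 0.9962, like that of the other 6 members. Here too 0 of 11645 genes passed the threshold (percent called 0).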

How the data were processed

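The authors deposited RNA-seq values as log2 CPM per gene, read counts of CLIP positions for each library, and a peak list per treatment with a signal score and p-values, per the file headers. The submitters' processing notes name Trimmomatic, UMI-tools, STAR, bedtools, Subread, featureCounts, limma and edgeR with build mm10. Their settings are not given in the sources used here. Of the deposited log2 CPM values, 100% gave back whole reads within 0.02.

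Each position of 100 bases was counted once, and gene sums used Ensembl identifiers (16901 of 16918 matched a symbol). Treatments were compared with limma 3.58.1 (log2 CPM, mean-variance trend, and CLIP minus RNA with 0.5 reads added) and with the quasi-likelihood test of edgeR 4.0.16 after TMM scaling and filterByExpr, in R 4.3.3, 2-sided, with Benjamini-Hochberg adjustment over the whole table. The fits were also run on simulated counts with a common dispersion and no library sets, which cannot show how they behave with such sets. Positions were read as BED, starting 1 base later. Genes, transcripts and sequences came from GENCODE M21 (GRCm38). Alternatives were DESeq2 1.42.0, other scalings and filters, a replicate block and leaving out each library.

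The members and lists were chosen with earlier results of these data known, although the rule for the members uses symbols and no measured value. All 9 members, the 2 most abundant and 2 lowest-p genes of each list, and member positions with at least 10 reads or in a peak list could be named. Further list genes named were chosen after their values were seen. A gene that this rule would name is not reported here. Nothing states that pools were independent batches, so p-values measure the spread between these pools.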

Additional observations from a re-analysis of the deposited data

How the results depend on the processing

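No gene passed the threshold under any alternative for RNA-seq (109 to 958 genes with an unadjusted p under 0.05; edgeR on the recovered reads called 0 of 13299), for CLIP gene sums (182 to 993, and 622 by DESeq2), or for CLIP relative to RNA (305 to 834). Among CLIP positions, DESeq2 called 1 and the test without a count filter 406 (24 higher and 382 lower), against 0 by edgeR with the filter. The changes of 4 of the 9 members in RNA-seq kept their sign under all 13 alternatives. With the library set as a covariate, chosen after seeing the data, the change of Cx3cr1 was −0.07 in RNA-seq and −0.04 in CLIP gene sums. Centring on the median gene gave −0.0027 for Csf1r. Leaving out each library in turn moved the RNA-seq change from −0.10 to 0.28 for Cx3cr1, from −0.11 to 0.14 for Csf1r, from −0.05 to 0.16 for C1qa, from −0.04 to 0.03 for C1qc and from −0.31 to 0.04 for Trem2. It moved the CLIP sum of C1qb from −0.93 to 0.68, and CLIP relative to RNA from −1.88 to 0.68 for P2ry12 and from −0.73 to 0.35 for C1qb. The CLIP sum of Csf1r stayed between 1.18 and 1.81 and that of Cx3cr1 between 0.03 and 0.48, and the RNA-seq change of Aif1 between 0.15 and 0.49. The CLIP level of Cx3cr1 relative to its RNA was 0.77 with all its positions and −0.48 with the inner positions alone. For the other changes the cause was not tested. Same-numbered libraries of the treatments did not deviate together (correlations −0.3464, −0.821 and −0.4888 in RNA-seq, −0.3679, −0.5492 and −0.08205 in CLIP). They lay in opposite library sets for every number, so these correlations cannot show whether equal numbers were handled together. The replicate block gave 0 calls in RNA-seq with 144 genes at an unadjusted p under 0.05. Depth limits the CLIP values of P2ry12, C1qa, C1qc, Aif1 and Trem2, which had 0 to 38 reads in all libraries together.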

Other observations

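Genes that microglia raise when they are activated showed no common direction 30 min after methamphetamine. Of the 13 measured genes of that list, 6 were above 0 and 7 below, the median change was −0.033 and 0 passed the threshold by limma. Lpl, a lipase of activated microglia that other cells of the striatum express too, was lower by the smallest p of the list (−0.42 ± 0.17, unadjusted p = 0.03981, adjusted p = 0.9998 by limma). Cd74, the invariant chain of antigen presentation, measured 1.69, 1.51 and 0.69 log2 CPM in saline and 1.89, 3.44 and 1.84 in methamphetamine, a change of 1.09 (unadjusted p = 0.06772, adjusted p = 0.9998 by limma). Its highest library, methamphetamine 2, was the one with the choroid plexus markers. The difference between treatments was 2.25 within set A, which holds that library, and 0.35 within set B, each with 1 library on one side. Cd74 had 6 to 47 reads per library, and whether its level is linked to the choroid plexus markers was not tested. Axl, a receptor for dying cells, differed by −0.03. Cst7, Ccl3, Ccl4 and Il1b were at 0 reads in at least 1 library, and Tnf had 1 to 2 reads per library. The count by direction therefore rests in part on genes near 0 reads.

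The sums of other cell types were also uneven within a treatment, and not always by library set. Oligodendrocyte markers summed to 5050, 6820 and 12300 CPM in saline and to 12300, 8000 and 9820 in methamphetamine. Markers of cortical excitatory neurons, which lie outside the striatum, ran from 133 to 775 CPM, lowest in saline 3 and highest in methamphetamine 3.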
